A study of Homo sapiens with 4 samples.

Results

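The genes described here are 33 genes of the p53 response, taken as a named list and sorted by their textbook role into 5 arms: feedback on p53 itself (5 genes), cell cycle arrest (9), DNA repair (4), metabolism (6) and cell death (9). They were measured by RNA sequencing in U87MG cells, an established human glioblastoma line labelled as wild type in genotype. Control cells (2 samples) were left untreated and chaetocin cells (2 samples) received 50 nM chaetocin, dissolved in DMSO, for 24 h. Chaetocin is a fungal metabolite described as an unspecific inhibitor of histone methyltransferases that also inhibits a thioredoxin reductase. The untreated controls are not described as having received DMSO, so chaetocin and its solvent cannot be told apart. The samples of a group are labelled as replicates without a statement that they came from separate cultures, so p-values measure only the spread between these samples. The question was which arms of the p53 response moved with chaetocin and which did not. Each of the 33 members was found among the 57905 genes listed, and each passed the filter on low counts with at least 95 reads in every sample.

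p53 is a transcription factor that is kept low in unstressed cells by the ubiquitin ligase MDM2 and accumulates when DNA is damaged or the cell is otherwise stressed. It binds DNA through a decamer that is usually repeated in tandem, and it raises genes that halt the cell cycle, repair DNA, adjust metabolism or promote death, along with *MDM2*, which closes a negative loop. U87MG cells are known as a glioma line with wild-type p53. Many of the targets also answer to other stress-activated factors, so a change of one target is not specific to p53.

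The libraries held between 21241984 and 32590479 counts, and a gene with 3 reads would stand at 0.0844 to 0.138 CPM (the read count scaled to library size, with TMM factors as edgeR's correction for library composition). Of the glioma markers fixed for the check of the label, *VIM* stood at 1148 to 2797 CPM and *CD44* at 797 to 2653 CPM, whereas the astrocyte markers *GFAP* (at most 1.02 CPM) and *S100B* (at most 0.0919 CPM) were near or at 0. The 5 of the 6 glioma markers that were tested were all lower in both treated samples, with a median log2 fold change of -1.001, and *CHI3L1* was called lower. Of 2 genes known as deleted in this line, 1 had no read in any library and *MTAP* had at most 0.348 CPM. The 10 leukocyte markers summed to 1.68 and 1.81 CPM in the control samples and to 4.96 and 6.25 CPM in the chaetocin samples, with 2 markers called higher and *CD3E* and *MS4A1* at 0 in all libraries. The part of these reads in the results below was not tested. The 5 endothelial markers found summed to 13.6 and 18.6 CPM in the control samples and to 12.2 and 11.7 CPM with chaetocin, with none called in either direction.

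A sequence resembling the p53 consensus, a pair of decamers without a spacer, was found near the start of 5 members, and these sites are shown as the letters by which members could be compared with the consensus. The windows searched were the 300 bases from 250 before to 50 after each RefSeq gene start on GRCh38.p14, which the table held for 28 of the 33 members. *FBXO22*, *GADD45A*, *RRM2B*, *TP53INP1* and *PHLDA3* had no window and were not searched. A match kept the central C and G of both decamers and had at most 3 mismatches in 20 bases, a limit chosen after the matches were seen, and the consensus reads the same on both strands. The sites are written from 5′ to 3′ along the gene, and capitals mark the 4 central bases of each decamer.
*DDB2*: aagCTGGtttgaaCAAGccc
*AEN*: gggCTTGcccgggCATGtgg
*MDM2*: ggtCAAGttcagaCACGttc
*FDXR*: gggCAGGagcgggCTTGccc
*SESN1*: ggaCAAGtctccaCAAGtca

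The *DDB2* site (plus strand, chr11:47214969-47214988) had 1 mismatch and spanned the gene start. The *AEN* site (plus strand, chr15:88621306-88621325) and the *MDM2* site (plus strand, chr12:68808923-68808942) had 2 mismatches each. The *FDXR* site (minus strand, chr17:74872996-74873015) and the *SESN1* site (minus strand, chr6:109009018-109009037) had 3. Among all 27305 genes of the table, 1.37% held such a match. A match is a description of the letters and not of binding, and p53 sites outside the window, for example in introns or further upstream, were not searched. Of the 5 genes with a match, *MDM2* passed the test described next, and *DDB2*, *FDXR*, *SESN1* and *AEN* did not, with log2 fold changes of 0.39, 0.38, 0.24 and 0.08. *TP53INP1*, which also passed the test, had no window to search.

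Across the module, 2 of 33 members were higher with chaetocin at an adjusted p under 0.05 and none was lower (edgeR's quasi-likelihood test, Benjamini-Hochberg adjustment over 16416 genes). These were *TP53INP1* and *MDM2*. By edgeR, 1.11% of all genes were called higher and 0.743% lower. DESeq2 called 3 members higher and none lower, with 382 genes called higher and 478 lower among the 31692 it was given. At an unadjusted p under 0.05, 11 members were higher and 1 was lower, where 10.9% of all genes were higher and 9.43% lower. Log2 fold changes were above 0 for 26 members and below 0 for 7. Of all genes tested, 8357 were above 0 and 8059 below. The median of the members was 0.28, against 0.01 for all genes tested. Both chaetocin samples lay above both control samples in 18 members and below them in 4, and the groups overlapped in 11. Over all genes tested these shares were 26.8% above and 26% below. The shift was small for most members: on the log2 scale it reached 1 in 2 of them and 0.5 in 8, in either direction. In a bulk sample, a change in the RNA of every cell cannot be told apart from a change in the share of cells that carry it.

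**Figure D1:**
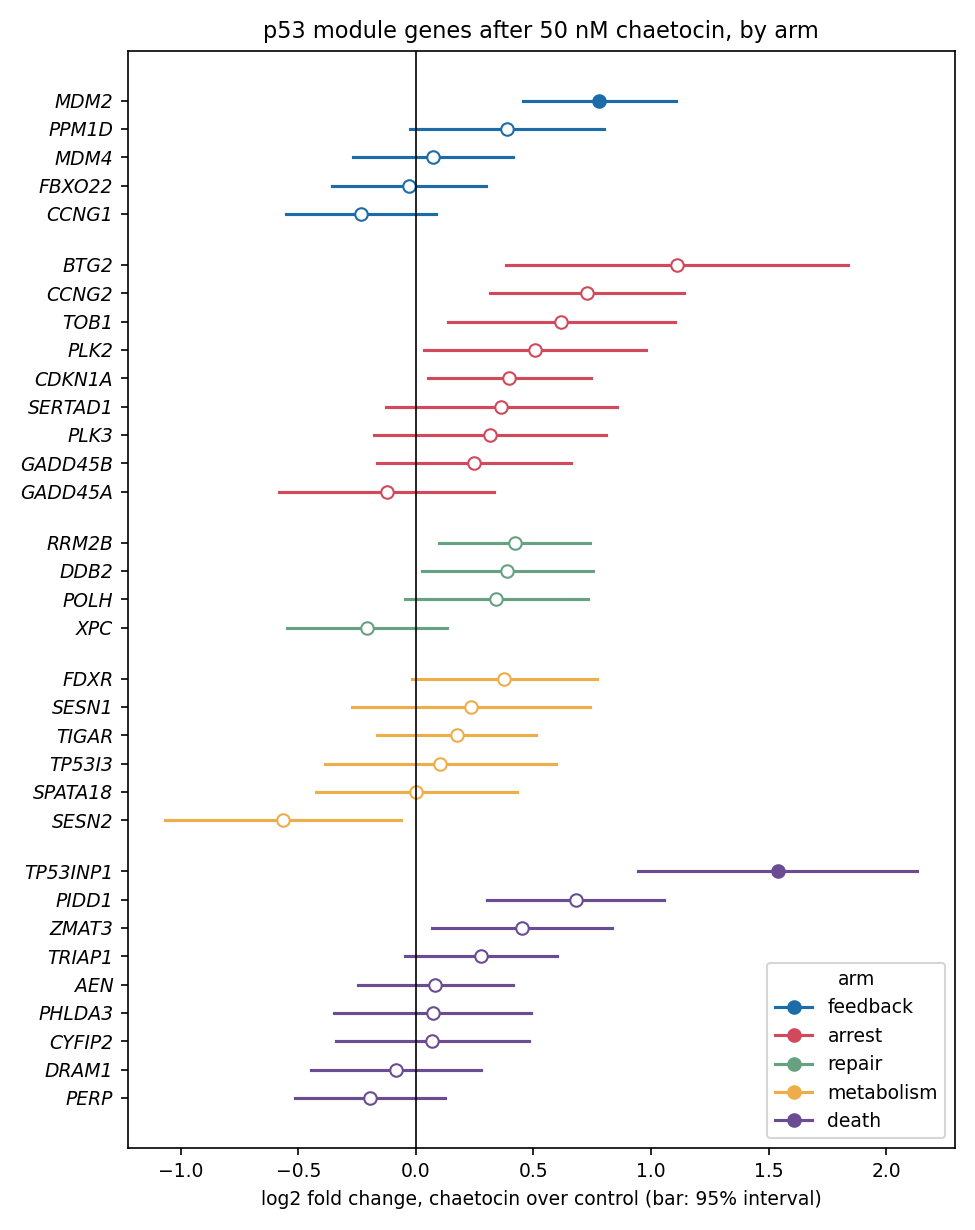
Log2 fold change of each of the 33 p53 module genes (chaetocin over control, horizontal axis) with its 95% interval, grouped and coloured by arm. Filled points are *MDM2* and *TP53INP1*, the genes with an adjusted p under 0.05, and open points are the other 31. The intervals of 12 genes lie on 1 side of 0, *SESN2* being the only one of them below it.

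In the feedback arm, *MDM2* passed the test and the other 4 genes did not. *MDM2* (ENSG00000135679, chromosome 12), the ligase that marks p53 for degradation, stood at 120.02 and 126 CPM in the control samples and at 211 and 212 CPM in the chaetocin samples. The chaetocin samples were nearly equal and both lay well above the controls. The fitted change was 1.72-fold (95% interval 1.37 to 2.15), or 0.78 on the log2 scale (SE 0.14), with an adjusted p of 0.0399 by edgeR. Its size moved little when any sample was left out, from 0.73 to 0.81 on the log2 scale, but the call was lost without control sample 1 (adjusted p = 0.298) and without control sample 2 (adjusted p = 0.187). *PPM1D*, the phosphatase that removes the phosphates placed by the damage kinases, was at 14.1 and 14.2 CPM in control and at 17.1 and 19.9 CPM in chaetocin samples. Both treated values exceeded both controls, and the log2 fold change of 0.39 did not pass the test (adjusted p = 0.272).

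The remaining feedback genes did not pass the test. *MDM4*, the partner of MDM2 that masks the activation domain of p53, had 35.6 and 38.7 CPM in control and 39.1 and 39.04 CPM in chaetocin samples, with a log2 fold change of 0.07 and an interval from -0.27 to 0.41. A change of *MDM4* as large as the fitted one of *MDM2* lies outside this interval. *CCNG1*, a cyclin that brings a phosphatase to MDM2, was at 145 and 139 CPM in control and at 119.7 and 122 CPM in chaetocin samples. Both chaetocin values were below both controls although the gene is a target that p53 raises, and the log2 fold change of -0.23 was not called (adjusted p = 0.384). *FBXO22*, the receptor subunit of another ubiquitin ligase for p53, had a log2 fold change of -0.03 and overlapping groups. The median of the arm was 0.07.

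The arrest arm had the largest median, 0.40 on the log2 scale, and 8 of its 9 genes had a log2 fold change above 0, yet none passed the test by edgeR. DESeq2 called *CCNG2* of this arm (adjusted p = 0.0271). At an unadjusted p under 0.05, 5 of its genes were higher. *CDKN1A* (ENSG00000124762, chromosome 6), which encodes the cyclin-dependent kinase inhibitor p21, stood at 175 and 163 CPM in control and at 209 and 236 CPM in chaetocin samples. The groups did not overlap, the change was 1.32-fold (95% interval 1.04 to 1.67), and the adjusted p was 0.194. *BTG2*, an antiproliferative protein that recruits the deadenylase complex to mRNAs, was the least abundant member at 4.34 and 3.31 CPM in control and 5.97 and 10.4 CPM in chaetocin samples. Its fitted change was 2.16-fold, or 1.11 on the log2 scale, which became 0.64 without chaetocin sample 2 and 1.45 without chaetocin sample 1. The chaetocin samples differed from each other by more than the controls did, and the adjusted p was 0.107.

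*CCNG2*, an unconventional cyclin that is raised when cells leave the cycle, was at 55.2 and 40.4 CPM in control and at 75.5 and 82.8 CPM in chaetocin samples. All treated values exceeded the controls, and the difference on the log2 scale was 0.73 (SE 0.18) with an adjusted p of 0.0781. *TOB1*, a relative of BTG2, had 10.8 and 13.1 CPM in control and 15.9 and 20.7 CPM in chaetocin samples (log2 fold change 0.62, adjusted p = 0.154). The log2 fold change of *TOB1* was 0.40 without chaetocin sample 2 and 0.80 without chaetocin sample 1. The polo-like kinases split by sample: *PLK2* was at 51.2 and 52.8 CPM in control and at 58.3 and 89.3 CPM with chaetocin, while *PLK3* was at 17.3 and 16 CPM in control and at 16.7 and 24.6 CPM with chaetocin. In both, most of the difference came from chaetocin sample 2. Without that sample the log2 fold change was 0.16 for *PLK2* and -0.0004 for *PLK3*.

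The stress sensors of the GADD45 family overlapped between groups. *GADD45A* stood at 71.1 and 67.4 CPM in control and at 76.3 and 50.9 CPM in chaetocin samples, with 1 treated sample above and the other below both controls. Its log2 fold change was -0.12, the only negative one of the arm. *GADD45B* had 23.03 and 19.1 CPM in control and 27.02 and 23.03 CPM in chaetocin samples, with a log2 fold change of 0.25. *SERTAD1*, a protein that binds CDK4, had a log2 fold change of 0.36 and overlapping groups, and the value lay between 0.14 without control sample 2 and 0.60 without control sample 1.

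In the repair arm, both treated values of 3 of the 4 genes exceeded both control values, those of *XPC* lay below them, and no gene passed the test. *RRM2B*, the p53-inducible subunit of ribonucleotide reductase that supplies nucleotides for repair, stood at 69.9 and 70.4 CPM in control and at 90.1 and 97.8 CPM in chaetocin samples. The controls were nearly equal, and the change of 1.34-fold (95% interval 1.07 to 1.67) had an adjusted p of 0.147. *DDB2*, which recognises ultraviolet lesions, was at 62.2 and 50.4 CPM in control and at 76.1 and 71.4 CPM in chaetocin samples, a log2 fold change of 0.39 (adjusted p = 0.220) that became 0.23 without control sample 2. *POLH*, a polymerase that copies past damaged bases, was at 18.8 and 18 CPM in control and at 21.6 and 24.9 CPM in chaetocin samples (log2 fold change 0.34).

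*XPC*, the other lesion sensor of nucleotide excision repair, went the other way. It had 50.7 and 54.8 CPM in control and 43.2 and 48.1 CPM in chaetocin samples, a log2 fold change of -0.21 with an interval from -0.55 to 0.13. *XPC* and *DDB2*, which act in the same pathway, thus had fitted changes of opposite sign, and neither was called. The median of the arm was 0.37.

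**Figure D2:**
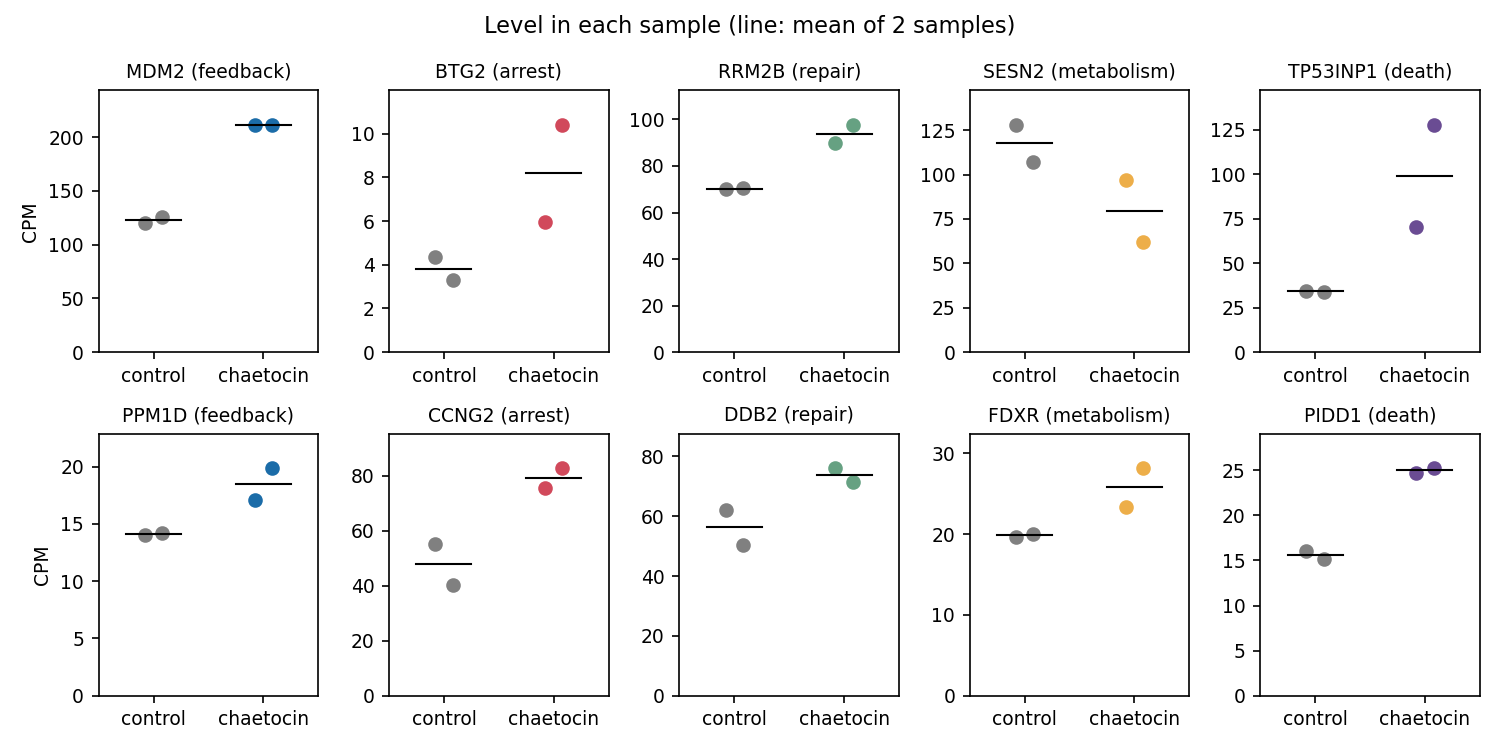
Level in CPM (vertical axis, starting at 0) in each control and chaetocin sample for the 2 genes of each arm with the largest change in size, with a line at the mean of the 2 samples. In each of the 10 genes the groups do not overlap. *MDM2* and *PIDD1* have nearly equal chaetocin samples, whereas *TP53INP1* and *BTG2* are higher in chaetocin sample 2, and *SESN2* is the only one of the 10 that is lower with chaetocin.

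The metabolic arm had no called gene, and its sestrins pointed in different directions. *SESN2*, a sestrin that restrains mTORC1 and oxidative stress, had the lowest log2 fold change of the module. It stood at 128 and 107 CPM in control and at 97 and 62.1 CPM in chaetocin samples, so both treated values were below both controls. The fitted log2 difference was -0.57 (SE 0.22, 95% interval -1.07 to -0.065, adjusted p = 0.200), and it was -0.28 without chaetocin sample 2. *SESN1*, its relative with the promoter match shown above, was at 17.9 and 18.8 CPM in control and at 17.1 and 26.04 CPM in chaetocin samples. The treated samples fell on either side of the controls, and the log2 fold change was 0.24. It was -0.11 without chaetocin sample 2.

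*FDXR*, the reductase that feeds electrons to mitochondrial ferredoxins, was at 19.7 and 20.1 CPM in control and at 23.4 and 28.2 CPM in chaetocin samples (log2 fold change 0.38, adjusted p = 0.265, and 0.23 without chaetocin sample 2). *TIGAR*, a phosphatase that lowers glycolytic flux, had a log2 fold change of 0.17. *TP53I3*, a quinone oxidoreductase known from p53-induced death, had 0.10. *SPATA18*, which acts in mitochondrial quality control, had 0.0006 with overlapping groups. The intervals were -0.16 to 0.51 for *TIGAR*, -0.39 to 0.59 for *TP53I3* and -0.43 to 0.43 for *SPATA18*, so changes of the fitted size of *MDM2* lie outside all of them. The median of the arm was 0.14.

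The death arm held the largest change of the module and several genes without a detectable one. *TP53INP1* (ENSG00000164938, chromosome 8), a stress protein that promotes p53 phosphorylation and autophagy, stood at 34.6 and 33.7 CPM in control and at 70.3 and 128 CPM in chaetocin samples. Both treated values were more than the controls by a wide margin, and they differed from each other far more than the controls did. The change was 2.91-fold (95% interval 1.93 to 4.38), or 1.54 on the log2 scale (SE 0.26), with an adjusted p of 0.0341 by edgeR. The call held with each sample left out, with log2 fold changes from 1.03 without chaetocin sample 2 to 1.91 without chaetocin sample 1.

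*PIDD1*, the core of the complex that activates caspase-2, was at 16.1 and 15.1 CPM in control and at 24.7 and 25.2 CPM in chaetocin samples. Replicates were close in both groups, and the change of 1.60-fold (95% interval 1.23 to 2.08) had an adjusted p of 0.0736. *ZMAT3*, an RNA-binding zinc finger protein, had 172 and 169 CPM in control and 205 and 260.2 CPM in chaetocin samples (log2 fold change 0.45, adjusted p = 0.184, and 0.26 without chaetocin sample 2). *TRIAP1*, a mitochondrial protein that favours survival, had 77.4 and 80.8 CPM in control and 91.6 and 100.2 CPM in chaetocin samples (log2 fold change 0.28, adjusted p = 0.313).

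The other 5 death genes had log2 fold changes between -0.19 and 0.08. These were *AEN*, a nuclease with a promoter match (0.08), *PHLDA3*, an inhibitor of AKT (0.07), *CYFIP2*, a subunit of the actin-regulating WAVE complex (0.07), *DRAM1*, a lysosomal membrane protein that acts in autophagy (-0.08), and *PERP*, a membrane protein of desmosomes (-0.19). *PERP* was lower in both chaetocin samples, at 72.4 and 77.4 CPM in control and 64.8 and 66.1 CPM with chaetocin, and the groups overlapped in the other 4. The median of the arm was 0.08.

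**Figure D3:**
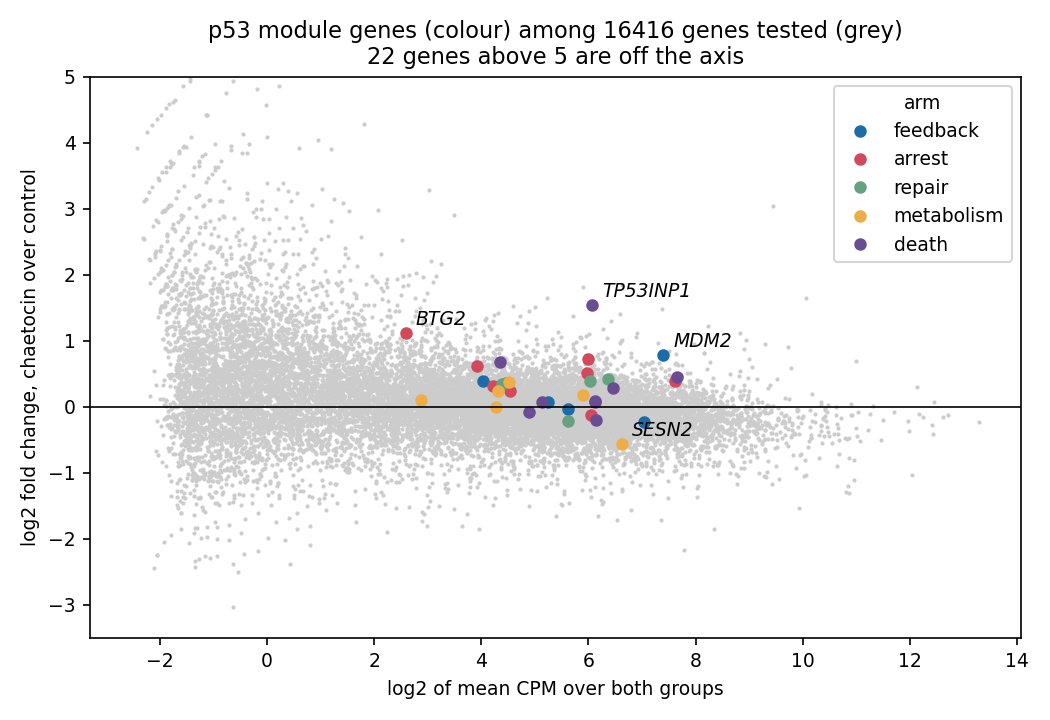
Log2 fold change (vertical axis) against the log2 of the mean CPM over both groups (horizontal axis) for the 16416 genes tested in grey and the 33 module genes coloured by arm. Most coloured points lie close to 0 within the grey cloud. *TP53INP1*, *MDM2*, *BTG2* and *SESN2* are labelled, *BTG2* lies in the range where grey points spread more widely, and 22 genes with a log2 fold change above 5 are off the axis.

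The size of the log2 difference between replicates had a median over the 33 genes of 0.09 between the control samples and of 0.20 between the chaetocin samples. Over all genes tested the SD of this difference was also larger between the chaetocin samples, 0.43 against 0.30. In 24 of the 33 members chaetocin sample 2 was higher than chaetocin sample 1, where this held for 50.2% of all genes tested. Against the control mean, the members had a median log2 difference of 0.19 for chaetocin sample 1 and of 0.34 for sample 2. By arm, these medians were 0.07 and 0.07 for feedback, 0.36 and 0.55 for arrest, 0.29 and 0.39 for repair, 0.02 and 0.16 for metabolism and 0.16 and 0.28 for death. In the arrest arm both medians exceeded the size of the control difference, which was -0.11, and in the metabolic arm the value of chaetocin sample 1 did not exceed the control difference of 0.08. Per kilobase of exon, control levels of the members ranged from 1.39 CPM for *BTG2* to 55.4 CPM for *CDKN1A*, with *TRIAP1* next at 54.8 CPM. The genes that passed the test were of middle rank on this scale, *MDM2* at 9.26 and *TP53INP1* at 6.01 CPM per kilobase.

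Further genes of the pathway were counted in 3 lists. Over all genes tested, 10.9% were higher and 9.43% lower at an unadjusted p under 0.05 by edgeR. Of 29 regulators of p53 (damage kinases, ubiquitin ligases, acetyltransferases and cofactors), none passed the test in either direction, with 2 higher and 4 lower at an unadjusted p under 0.05 and a median log2 fold change of -0.08. Of 43 other p53 targets tested, none was called higher and 1 was called lower, with 6 higher and 5 lower at an unadjusted p under 0.05 and a median of 0.04. The called gene was *STEAP3*, a metalloreductase of endosomes, which stood at 107 and 88.6 CPM in control and fell to 51.01 and 33.7 CPM with chaetocin (log2 fold change -1.21, adjusted p = 0.0382 by edgeR). *ATF3* and *SFN*, chosen after their values were seen, narrowly missed the threshold by edgeR. *ATF3*, a stress-induced transcription factor, had 15.4 and 12.7 CPM in control and 26.3 and 25.6 CPM in chaetocin samples (adjusted p = 0.0503 by edgeR). It was called by DESeq2 (adjusted p = 0.00845), with upper-quartile size factors (0.0429) and with protein-coding genes only (0.0485). Calls also came without a filter on low counts and with a replicate block. RLE size factors (adjusted p = 0.0520) and at least 10 counts in every sample (0.0562) gave none. The log2 fold change of *ATF3* was 0.89, and 0.75 to 1.01 with single samples left out. *SFN*, a 14-3-3 protein of the G2 checkpoint, had 0.0820 and 0.104 CPM in control, from at most 3 reads a library, and 0.689 and 1.01 CPM with chaetocin (adjusted p = 0.0528). DESeq2 called none of the regulators, and of the other targets *ATF3* higher and 2 genes lower. With single samples left out, the median ranged from -0.14 to 0.04 for the regulators, above 0 without chaetocin sample 1, and from -0.01 to 0.12 for the other targets, below 0 without control sample 1. The medians of both lists lay below that of the 33 members (0.28), a difference that was not tested.

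The third list held 20 cell cycle genes that p53 is known to lower through p21 and the DREAM repressor complex. None of them was called lower: by edgeR 2 were called higher and the other 18 were not called. All 20 log2 fold changes were above 0, with a median of 0.34. Of all 16416 genes tested, 8357 were above 0. At an unadjusted p under 0.05 by edgeR, 9 of the 20 were higher, against 10.9% of all genes tested. DESeq2 called 4 of the 20 higher, with 19 log2 fold changes above 0 and 1 below. Both chaetocin samples lay above both controls in 13 of the 20, against 26.8% of all genes tested. The called genes were *MYBL2*, a cell cycle transcription factor, at 53.7 and 52.8 CPM in control and 118 and 100.4 CPM with chaetocin, and *E2F1*, which drives S phase genes, at 166 and 175 CPM in control and 345 and 315 CPM with chaetocin. Their log2 fold changes were 1.04 and 0.95, with adjusted p-values of 0.0279 and 0.0311 by edgeR. *E2F1* lost its call without control sample 1 (adjusted p = 0.144) and without control sample 2 (adjusted p = 0.106), and *MYBL2* kept its call with each sample left out. With single samples left out, 18 to 19 of the 20 genes stayed above 0 and 1 to 6 were called higher, 1 without either control sample and 6 without either chaetocin sample. The median log2 difference between the control samples was 0.13 over the same list. *CDKN1A*, which was not called, and the 20 listed genes had fitted changes of the same sign by edgeR with all samples. A link between them was not tested.

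**Figure D4:**
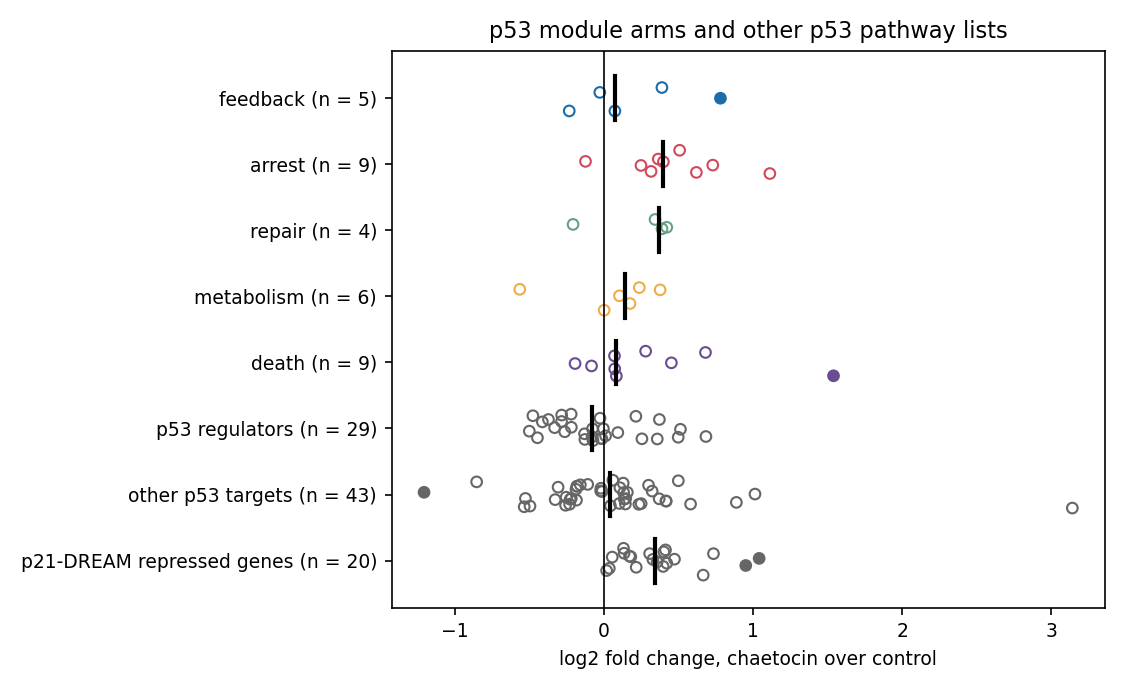
Log2 fold change (horizontal axis) of the genes of the 5 arms and of 3 further p53 pathway lists, 1 point per gene, filled where the adjusted p was under 0.05, with a bar at the median of each list. The arrest and repair arms and the p21-DREAM list have their medians at 0.34 to 0.40, and the regulators and the other p53 targets have theirs at -0.08 and 0.04.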

How the data were processed

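Reads were counted per gene by the authors, who deposited 1 table of raw counts per sample without normalization. The submitters' processing notes name cutadapt, TopHat2, TopHat, SAMtools and the build GRCh37, and the counting tool and whether it used strand are not given in the sources used here. Libraries were made from polyadenylated RNA. Symbols were matched by Ensembl identifier, and exon lengths came from GENCODE on GRCh38. Differential expression was tested in R 4.3.3 with edgeR 4.0.16 (filterByExpr with a minimum count of 10, TMM, robust quasi-likelihood fit, no block), with Benjamini-Hochberg adjustment over all genes tested and a threshold of 0.05. Intervals are 95% intervals from the fit, and the test was checked on simulated data, where it missed part of the 2-fold changes and its share of false calls exceeded the nominal one when dispersions were simulated gene by gene. DESeq2 1.42.0 served as an alternative. Log2 values of single samples used a pseudocount of 0.5 CPM. The members, arms and lists were chosen with earlier results of these data known, so no list was tested as a set. Named genes were all members, with per-sample values for called genes, for the 2 of each arm with the largest change, and called genes of the further lists. Per-sample values of further members were added after their values were seen. PCR copies are not separated, so floors cover counting error only.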

Additional observations from a re-analysis of the deposited data

How the results depend on the processing

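The call of *TP53INP1* held under every alternative run, and that of *MDM2* under all but those without control replicate 1 or 2. Members called higher numbered 2 with RLE or upper-quartile size factors, when every sample had to hold 10 counts or when non-coding genes were dropped, and 3 with DESeq2 (the third being *CCNG2*, adjusted p = 0.0271). DESeq2 called 382 genes higher and 478 lower in all. Without a filter on low counts, 787 genes were higher and 759 lower, and 5 members were higher and 1 was lower. In that run 1 regulator was called higher and 0 lower, and 2 other p53 targets higher and 4 lower. Of the p21-DREAM list, 4 genes were called higher and 0 lower. With at least 10 counts in every sample, 114 genes were higher and 80 lower. The replicate numbers are shared by the groups, but nothing in the labels says that they mark a pairing, and the log2 differences between replicates correlated across genes with r = 0.191 between the groups. With the replicate block, 1036 genes were higher and 1053 lower, and 7 members were higher (*TP53INP1*, *MDM2*, *BTG2*, *CCNG2*, *PIDD1*, *TOB1* and *PLK2*) and 1 lower (*SESN2*). With the block, 2 regulators were called higher and 2 lower, 4 other p53 targets higher and 5 lower, and 4 genes of the p21-DREAM list higher. Upper-quartile size factors moved the medians to 0.15 for feedback, 0.16 for death and 0.44 for repair, and the median of all genes to 0.08.

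With each sample left out in turn, genes called higher ranged from 215 to 1332 and lower from 97 to 1673, members called higher from 1 to 13 and lower from 0 to 2. Over all genes as among the members, the highest counts in both directions came without chaetocin replicate 1. *SESN2* and *GADD45A* were the members called lower there. The medians ranged from 0.34 to 0.56 for arrest, from 0.051 to 0.28 for death, from 0.0019 to 0.12 for feedback, from 0.27 to 0.39 for repair, from 0.02 to 0.20 for metabolism and from 0.18 to 0.35 for all members. Among regulators, 0 to 2 were then called higher and 0 to 4 lower, and among other p53 targets 0 to 5 higher and 1 to 4 lower, the highest counts coming without a chaetocin sample. The lone sample of a group is then assumed to vary like the others. Neither *TP53INP1* nor *MDM2* reversed in direction, but 7 members that were not called did, of which *PLK3*, *SESN1* and *GADD45A* were called without chaetocin replicate 1. *FBXO22* was 0.048 with upper-quartile size factors and from -0.081 to 0.017 with a sample left out, above 0 without chaetocin replicate 1. *SPATA18* was -0.0015 with RLE size factors, -0.016 with DESeq2, -0.019 without a filter, -0.0075 with the block, -0.09 without control replicate 1 and -0.19 without chaetocin replicate 2. Without chaetocin replicate 2, *CYFIP2* was -0.19, *GADD45A* 0.13 (range from -0.44), *PHLDA3* -0.18, *PLK3* -0.00038 and *SESN1* -0.11 (range to 0.51), and *CYFIP2* was -0.002 without control replicate 1. Why these values moved: the cause was not tested. Among the 33 members, fitted changes of up to 2.16-fold (*BTG2*) did not pass the threshold here.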
